A study of Glycine max with 16 samples.

Results

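The step from the photosynthetic optimum to 20% inhibition is the point on a warming curve at which heat began to lower photosynthesis in soybean leaves. It was read from 8 of the 16 arrays of the study, the 4 titled for 20% inhibition and the 4 titled for the optimum. All plants were Glycine max of the line Williams 82, the cultivar whose genome serves as the soybean reference, and total RNA came from the first leaf to be fully expanded. Per the labels, plants grew at 22 °C, 60% relative humidity and 350 µmol of light per square metre per second, with a photoperiod of 10 h. Air temperature was then raised in steps of 2 °C per 10 min towards 42 °C, and each leaf was sampled once photosynthesis had settled for 20 to 30 min. Optimum leaves were at the temperature of the highest photosynthetic rate, and the others at a higher temperature, where the rate was 20% lower. The remaining 8 arrays, 4 at the growth temperature (baseline) and 4 at 30% inhibition, entered the fit and are quoted for context. The labels give 4 plants per state, chosen at random, but not whether a plant was sampled at more than 1 state, nor the leaf temperature or the clock time of sampling of each state. Because each curve lasted 3 to 4 h, the heat itself and the time spent under warming cannot be told apart.

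Plants meet rising temperature with heat shock proteins, chaperones that bind unfolding proteins and help to refold or dissolve them. Heat shock transcription factors switch on these genes, and DREB2-type factors act in the same response in Arabidopsis. Photosynthesis is among the first leaf processes to decline in the heat, and Rubisco activase, which keeps the carbon-fixing enzyme Rubisco active, is known as a heat-labile step. The circadian clock sets the daily timing of many leaf genes. In it, morning genes of the LHY type repress evening genes of the LUX type.

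Values are MAS5 signals, 1 intensity per probe set and array, and a log2 change is 20% inhibition minus optimum ± the standard error of the limma fit. A probe set is a group of probes for 1 transcript, and several can report the same gene. Of 30517 probe sets tested, 5059 passed an adjusted p of 0.05, which is 16.6%. Of these, 2403 rose (7.87%) and 2656 fell (8.7%), and the median change of all tested probe sets was -0.01. The 4 values of each state did not overlap in 6283 (20.6%), with 3162 higher (10.4%) and 3121 lower (10.2%) at 20% inhibition. A rise of at least 2-fold was found for 602 probe sets (1.97%) and a fall of at least 2-fold for 621 (2.03%). Rises reached further than falls: 64 of the called probe sets had a log2 change of at least 3, and 21 had one of -3 or lower. In 17 the signal was below array background on all 4 optimum arrays and above it on all 4 at 20% inhibition, and in 58 the reverse held. Background was each array's own level, with a mean of 86.2 at the optimum and 125 at 20% inhibition. A signal below it was therefore easier to reach at 20% inhibition, and the counts of 17 and 58 cannot be compared directly. Whether the difference in background also shaped the counts of 64 and 21 was not tested. The share called grew with brightness, from 4.67% in the dimmest of 4 equal classes of tested probe sets to 12.5%, 20% and 29.1% in the brighter classes. The array also carries probe sets with IDs beginning PsAffx or HgAffx, named for a soybean pathogen and a nematode and assumed not to target soybean. Of the 835 of these that were tested, 15 rose and 1 fell, 1.92% in all.

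**Figure D1:**
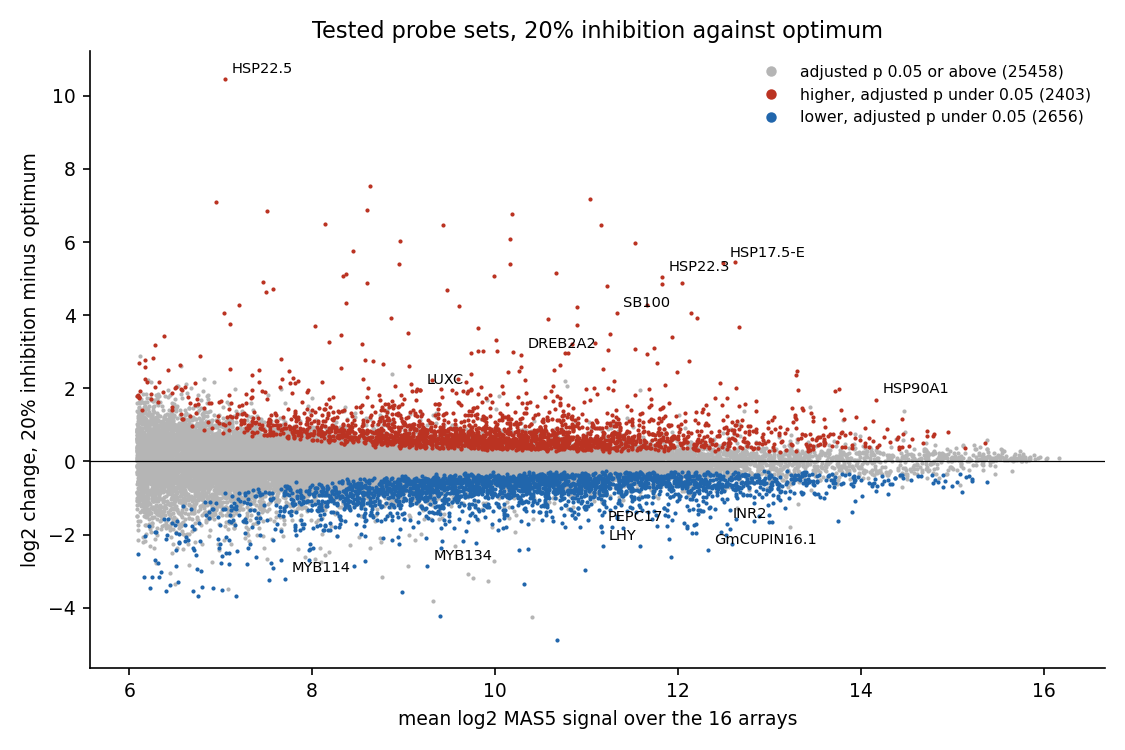
Each point is 1 of the 30517 tested probe sets, with its mean log2 signal over the 16 arrays on the horizontal axis and its log2 change from the optimum to 20% inhibition on the vertical axis. The 2403 called higher are red and the 2656 called lower are blue, and the largest rises lie further from 0 than the falls. The named gene at the top, HSP22.5, has a fitted change of 10.47 from optimum signals below background, where only a rise of at least 53.7-fold was measured.

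Some array properties differed in their means between the states. None of 8 exact permutation tests passed after adjustment, but with 4 arrays per state they could hardly have done so. Even the 2 at the smallest possible p had an adjusted p of 0.114, so these tests do not show that the arrays were alike. The background level, the 95th percentile of the PsAffx and HgAffx signals on an array, was 86.2 ± 11.9 at the optimum (range 76.3 to 100.4) and 125 ± 28.1 at 20% inhibition (range 99.6 to 163; SD, n = 4). The log2 difference was 0.52, with a two-sided exact permutation p of 0.0571, or 0.152 after Benjamini-Hochberg adjustment over 8 such tests. 20% inhibition replicates 3 and 2 were the highest, at 163 and 129. The 3′ minus 5′ log2 difference of the Gm_Actin controls, a reading of RNA integrity and labelling, was 4.73 ± 0.17 at the optimum and 3.60 ± 0.67 at 20% inhibition. That of the r2-Gma-actin controls went the other way, from 1.18 ± 0.15 to 1.40 ± 0.07 (exact permutation p = 0.0286 for each, the smallest possible with 4 against 4, adjusted p = 0.114). The other 5 control transcripts had exact permutation p of at least 0.286. With 20% inhibition replicates 2 and 3 both left out, 2925 probe sets passed, and with the background level as a covariate 2223 passed. The part of these array properties in the results was not tested beyond such refits, whose effect is given beside the genes.

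**Figure D2:**
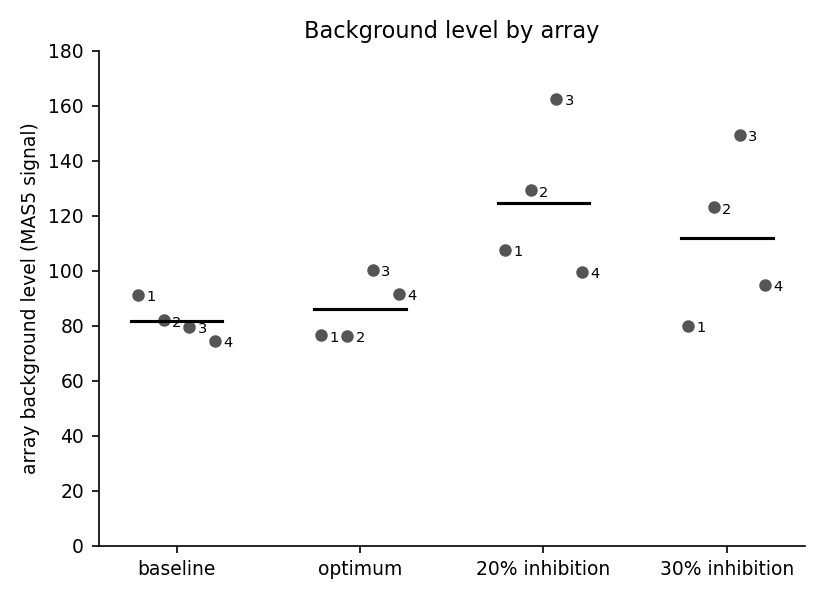
Each point is the background level of 1 array as a MAS5 signal, labelled with its replicate number, and bars are means of 4 arrays. 20% inhibition replicate 3 was the highest of the 16 arrays at 163, and the optimum arrays lay between 76.3 and 100.4.

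The tissue label matched its markers. All 24 probe sets of the leaf mesophyll list, with light-harvesting, Rubisco activase and vegetative storage protein genes, were above background on at least 1 of the 8 arrays, and 23 were tested. Their summed signal was 496838 to 609772 on the optimum arrays and 465721 to 684522 at 20% inhibition. Of 13 seed storage probe sets, 0 were bright enough to be tested, and 5 were above background on any of the 8 arrays. Of 8 nodule and root probe sets, 4 were above background on any array and 3 were tested. Of these NOD33, a gene named as a nodulin, rose by 0.96 ± 0.22 (adjusted p = 0.00659), from a mean signal of 3522 to 6877. The list's summed signal was 3311 to 5125 at the optimum and 5846 to 9289 at 20% inhibition. In whole leaves, fewer cells of a type and less RNA per cell cannot be told apart.

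All 8 tested probe sets of small heat shock proteins, which hold unfolding proteins until other chaperones refold them, rose. HSP17.5-E, a cytosolic member, had signals of 1411, 1379, 942 and 1242 on optimum replicates 1 to 4. At 20% inhibition its signals were 55249, 48289.5, 54577 and 52762. All 4 heated arrays lay far above the optimum arrays, a log2 change of 5.42 ± 0.18, or 42.9-fold (adjusted p = 6.82e-12). The highest signal of any probe set was 68540 to 89579 across the 4 arrays at 20% inhibition, so this gene had come near the top of the scale. A second HSP17.5-E probe set rose by 5.98 ± 0.22. HSP22.3 had signals of 1099.5, 929.9, 949 and 942 at the optimum and 34293, 27985, 31866 and 34973 at 20% inhibition. The optimum values lay close together, with replicate 1 the highest, and the rise was 5.04 ± 0.16 (adjusted p = 6.82e-12).

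HSP22.5 was not above background in the optimum leaf. Its optimum signals were 3.5, 1.89, 3.27 and 5.14, all below array background, and those at 20% inhibition were 5412, 3927, 5339 and 3921. Counted from the background level, it was at least 53.7-fold higher (fitted log2 change 10.47 ± 0.49, adjusted p = 4.64e-10). HSP23.9, with 4 probe sets, was already bright at the optimum in 3 of them, at 12439 to 23394, and these rose by 0.90 to 1.33. The fourth rose by 3.64 ± 0.31, from a mean of 425 to 5278. None of the list's 8 tested probe sets, of 4 genes, overlapped between the states. Among all tested probe sets, 10.4% did not overlap and were higher at 20% inhibition. The list's median change was 4.34, against -0.01 for all probe sets. The count of 8 also held with the background covariate, without 20% inhibition replicates 2 and 3, and without each array in turn. From baseline to the optimum, a comparison that shares the optimum arrays, 7 of the 8 had already risen, with a list median of 2.46. The exception was HSP22.5. Of all tested probe sets, 6.63% rose there.

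The disaggregating chaperone HSP101 and 1 of 2 listed cochaperones, BAG6A, rose as well. SB100, the soybean HSP101, which pulls proteins out of aggregates, had signals of 849, 869, 468 and 784 at the optimum and 11607, 15665, 12864 and 8826 at 20% inhibition. The groups were far apart, with optimum replicate 3 below the other 3, and the log2 change was 4.05 ± 0.29 (adjusted p = 1.05e-07). BAG6A, of a family of HSP70 cochaperones, had signals of 46.5, 88.5, 109.9 and 264 at the optimum, 1 of them below background. At 20% inhibition it had 3945, 5155, 5354 and 3589. It rose by 5.41 ± 0.64 (adjusted p = 2.99e-05), and its optimum arrays spread more widely than the heated ones. HOP1, which links HSP70 to HSP90, had means of 320.2 and 346 and did not pass (log2 change 0.00 ± 0.33).

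The cytosolic HSP90 genes, whose products mature signalling proteins, went separate ways. HSP90A1 had signals of 24203, 22767, 16021 and 16638 at the optimum and 64594, 62646, 59152 and 67389.6 at 20% inhibition. The groups did not overlap, and all 3 of its probe sets rose, by 1.69 to 1.98. These heated signals also lay near the top of the scale. None of the 7 HSP90-1 probe sets passed, with changes of -0.51 to 0.33 and adjusted p of 0.064 to 0.828. The 0.33 was the only positive change. It came from a dim probe set, at means of 74.9 and 96.4, below background on 3 arrays of each state. In 4 of the 7 the heated arrays were all below the optimum arrays, as in 10.2% of all tested probe sets. The difference between both genes was not tested. From baseline to the optimum, a comparison that shares the optimum arrays, 9 of the 10 HSP90 probe sets had risen, where 6.63% of all tested probe sets rose and 6.26% fell (12.9% in all).

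Few heat shock factors passed. Of 14 that were tested, for 10 genes, 2 rose and 0 fell, and the median was 0.37. That is 14.3%, near the share called among all probe sets. HSF-15 had signals of 423, 368, 355 and 532 at the optimum and 711, 739, 1039.7 and 619.9 at 20% inhibition, a rise of 0.88 ± 0.17 (adjusted p = 0.00247). The heated arrays all lay above the optimum arrays. The other call was 1 of 2 HSF-01 probe sets, named here after its value was seen. It rose by 1.92 ± 0.38 from a mean of 475 to 1775, while the brighter HSF-01 probe set, at 0.24 ± 0.13, did not pass. HSF-03 and HSF-26, whose signals had risen by 2.82 and 2.96 from baseline to the optimum, had changes of -0.19 ± 0.25 and -0.06 ± 0.27. HSF-08, which had risen by 2.52 and 2.66 in its 2 probe sets, had changes of 0.73 ± 0.27 and 0.72 ± 0.33, with no overlap but adjusted p of 0.0737 and 0.15.

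DREB2A2, a transcription factor of the DREB2 type, was level between baseline and the optimum and high in the inhibited leaf. Its signals were 416, 513, 419 and 392 at the optimum and 3156, 4028, 3651 and 2487 at 20% inhibition. The log2 change was 2.92 ± 0.31 (adjusted p = 1.15e-05), beside 0.09 ± 0.31 from baseline to the optimum. Of 17 tested DREB and ERF probe sets, it was the only one to rise, and 1 fell. With 11.8% called, the list lay below the 16.6% of all probe sets. The one that fell was of EREB, at -0.63 ± 0.16 (adjusted p = 0.0124, and 0.134 with the background covariate).

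Folding genes of the endoplasmic reticulum and the cyclophilins gave smaller changes. PDIM-1, a protein disulfide isomerase, had signals of 4091, 4699, 4189 and 3767 at the optimum and 8452, 8182, 8163 and 8666 at 20% inhibition. Both of its probe sets rose, by 1.00 ± 0.13 and 0.98 ± 0.13, and the groups did not overlap. The other 9 ER folding probe sets did not pass. BIP4, the ER form of HSP70, rose by 0.45 ± 0.14 (adjusted p = 0.043) and 0.89 ± 0.17 in its 2 probe sets. The call of the first, brighter one ended under 12 of 20 alternatives. Among 15 tested probe sets of cyclophilins, which turn proline bonds, 2 rose and 4 fell. The share called was 40%, beside 16.6% of all tested probe sets. CYP17 rose by 0.84 ± 0.13, CYP11 fell by 1.29 ± 0.16 and CYP26 fell by 0.86 ± 0.15. The smaller rise of CYP13, 0.45 ± 0.13 (adjusted p = 0.0248), ended as a call in the fit of only the 8 arrays and without 5 of the 8 arrays in turn. CCT-D, a subunit of the cytosolic chaperonin, was the only chaperonin probe set tested and fell by 0.52 ± 0.10 (adjusted p = 0.00263).

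**Figure D3:**
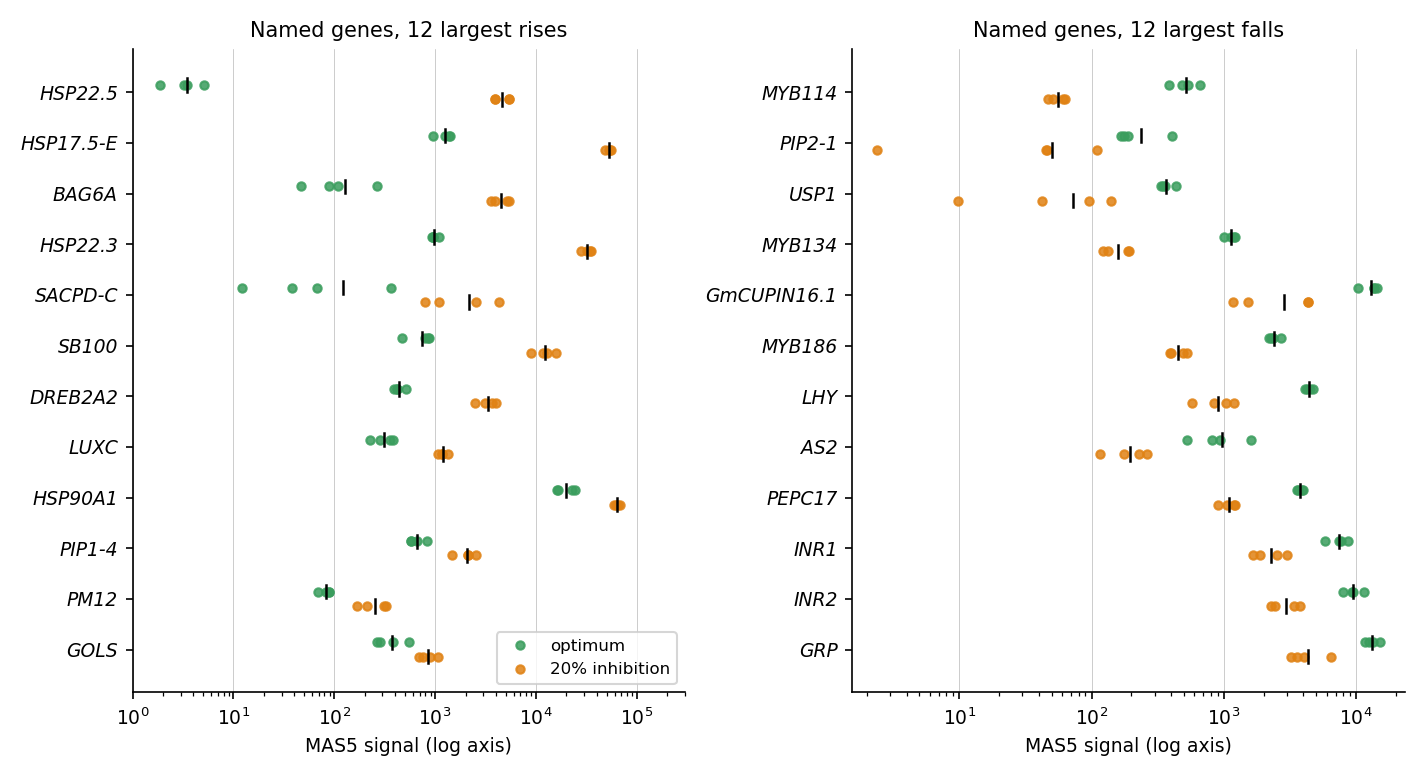
Points are the MAS5 signals of single arrays on a log axis, green for the optimum and orange for 20% inhibition, and black bars are means of 4, for the 12 largest rises and the 12 largest falls among named genes. In each gene the 4 arrays of a state do not overlap those of the other, which the choice of genes required, and spread is widest for SACPD-C, PIP2-1 and USP1.

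Among clock genes, LHY fell and LUXC rose. The hour at which each state was sampled is not given in the labels, so a later hour and a higher temperature cannot be told apart here. LHY, a morning MYB repressor at the core of the plant clock, had signals of 4129.8, 4689, 4228 and 4457 at the optimum. At 20% inhibition they were 1033, 573, 1186 and 846. All heated arrays were far below the optimum arrays, and the log2 change was -2.32 ± 0.16 (adjusted p = 1.01e-07). The other LHY probe set fell by 2.97 ± 0.20. LUXC, of the evening complex that closes the daily cycle, had signals of 282, 383, 227 and 354 at the optimum and 1172, 1067, 1349.6 and 1163 at 20% inhibition. It rose by 1.96 ± 0.18 (adjusted p = 1.85e-06), with no overlap between the states.

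Some relatives of LHY fell as well. MYB134 had signals of 1187, 1002, 1221 and 1131 at the optimum and 194, 189.8, 133 and 123 at 20% inhibition, and fell by 2.85 ± 0.16 (adjusted p = 6.69e-09). MYB186, a name that RefSeq also lists for LCL1, an LHY-like gene, fell by 2.40 ± 0.19, from 2188 to 2694 down to 389.9 to 524. MYB114, which RefSeq gives as GmLHY2b, had 387 to 666 at the optimum and was below background on all 4 heated arrays, so that it was at least 4.14-fold lower. RefSeq lists MYB134 as a further name of MYB114, and probes of such close relatives may share targets. LCL3 had means of 195 and 81 and did not pass (log2 change -1.70 ± 0.67, adjusted p = 0.0952).

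In all, 6 of 12 tested clock and photoperiod probe sets fell and 1 rose, with a median of -1.18. The share called was 58.3%, beside 16.6% of all tested probe sets, and most of the falls were of LHY and its relatives. Of these, MYB134 and MYB186 were added to the list by hand, with earlier results of these data known. The share depends in part on that choice. The counts were 6 and 1 with the background covariate and without 20% inhibition replicates 2 and 3. The sixth fall was that of COL10, a CONSTANS-like gene, by 0.66 ± 0.10 in 1 of 2 probe sets. ZTL1, a light-sensing F-box gene, had a change of 0.24 ± 0.17 and did not pass. Among the photoreceptors, GmCRY2c, a blue-light receptor, rose by 0.70 ± 0.12 (adjusted p = 0.000659). Its signals were 1735, 1775, 1683 and 1699.7 at the optimum and 3016, 2579.7, 3032 and 2604 at 20% inhibition, with no overlap. CRY2B fell by 0.59 ± 0.18 (adjusted p = 0.0324), a call that ended under 9 of 19 alternatives. From baseline to the optimum, with shared optimum arrays, LHY had fallen by 1.25 ± 0.16 and MYB134 by 2.68 ± 0.16. The LUXC change there was 0.47 ± 0.18, which did not pass (adjusted p = 0.0935).

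Of 25 tested nitrogen assimilation probe sets, 7 fell, among them those of nitrate reductase. The inducible nitrate reductase gene INR2, whose product makes nitrite from nitrate, had signals of 7918, 9446, 11460.2 and 9381 at the optimum. At 20% inhibition it had 2447, 3756, 3367 and 2265. The heated arrays were all lower, a log2 change of -1.71 ± 0.22 (adjusted p = 7.58e-05). INR1, a close relative, fell by 1.73 ± 0.22, with signals of 5807, 7669, 8673 and 7486 against 1865, 3019, 2538 and 1672. RefSeq lists INR1 as a further name of INR2, and the probes of both may share targets. AS2, an asparagine synthetase, fell by 2.26 ± 0.29 (adjusted p = 6.66e-05). Its signals were 929, 1614, 524 and 819 at the optimum and 261, 115, 229.9 and 177 at 20% inhibition, and they did not overlap. A second AS2 probe set fell by 1.78 ± 0.44. The first had already fallen by 1.46 ± 0.29 from baseline to the optimum, while INR1 and INR2 did not pass there.

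Glutamine synthetase, which fixes ammonium, fell in 3 of the 7 probe sets listed as GS, by 0.46 to 0.64. The states overlapped in all 3. Both nitrite reductase (NIR) probe sets, at -0.67 ± 0.35 and -0.52 ± 0.27, and the ammonium transporter AMT1.3, at -0.83 ± 0.51, did not pass. The nitrogen assimilation list of 25 tested probe sets for 13 genes had 7 falls and 0 rises, with a median of -0.36. That is 28% lower, where 8.7% of all tested probe sets were. The 7 became 4 with the background covariate, and 4 without optimum replicate 1 or without optimum replicate 2.

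PEP carboxylase, which supplies carbon skeletons for amino acids in leaves such as those of soybean, fell in 4 of the 10 probe sets listed with its kinase. The list had 40% called, beside 16.6% of all tested probe sets. PEPC17 had signals of 3872, 4003, 3559.5 and 3656 at the optimum and 1205, 1055, 906 and 1226 at 20% inhibition. Both groups were tight and far apart, with a log2 change of -1.79 ± 0.11 (adjusted p = 1.68e-08). PEPC17 had already fallen by 0.62 ± 0.11 from baseline to the optimum, where PEPC4 did not pass. PEPC4 fell by 1.28 ± 0.17, PEPC16 by 0.59 ± 0.12 and PEPC7 by 0.72 ± 0.13 in 1 of 3 probe sets. None of the 4 PEP carboxylase kinase genes, PPCK1 to PPCK4, passed, with changes of -0.67 to 0.33. The 4 falls were 3 with the background covariate.

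Within the photosynthetic apparatus the brightest light-harvesting genes did not pass. LHCP had means of 57253 and 52489 in its 2 probe sets at the optimum and 59934 and 55239 at 20% inhibition, changes of 0.06 ± 0.12 and 0.06 ± 0.13. The 3 bright CAB3 probe sets had changes of 0.08 to 0.11, and these signals also lay near the top of the scale. ELIP, an early light-induced protein of the thylakoid, fell by 1.57 ± 0.21 (adjusted p = 8.97e-05). It had signals of 7851, 7834, 9017 and 9120.3 at the optimum and 3900.1, 2238, 2498 and 2965 at 20% inhibition, with no overlap. ELIP had already fallen by 1.29 ± 0.21 from baseline to the optimum. Of 12 tested photosystem probe sets 16.7% were called, near the 16.6% of all probe sets. The only other fall was 1 of 3 of PSAD, a photosystem I subunit. It fell by 1.18 ± 0.12 from a mean of 4165 to 1839, while both other PSAD probe sets, at means of 51573 and 22184, did not pass.

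In carbon fixation, FBA, a fructose-bisphosphate aldolase, fell by 1.48 ± 0.27 (adjusted p = 0.00159). Its signals were 8208, 10886, 15127 and 14413 at the optimum and 4824, 4567, 2329 and 6312 at 20% inhibition. These do not overlap, and 20% inhibition replicate 3 was the lowest. Rubisco activase genes showed smaller changes. RCAALPHA fell by 0.41 ± 0.13 (adjusted p = 0.0453), a call that ended under 12 of 20 alternatives, among them the background covariate. RCA14 fell in 1 of 3 probe sets, by 0.34 ± 0.11, and RCA11, at 0.00 ± 0.19, did not pass. SHMT, a serine hydroxymethyltransferase, fell by 0.78 ± 0.20 (adjusted p = 0.0124, and 0.117 with the background covariate). RefSeq also gives this gene as GmSHMT08c and rhg4. It was on the photorespiration list, but its part in photorespiration was not tested. The brighter GmSHMT08m had a change of 0.03 ± 0.14 and did not pass.

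Of 27 probe sets for plastid isoprenoids, tocopherol and carotenoids, 5 fell and 2 rose, 25.9% against the 16.6% of all probe sets. Without 20% inhibition replicate 4 the falls were 9. DXR1, a reductoisomerase of the plastid isoprenoid pathway, had signals of 2239, 2469.6, 3135 and 2453 at the optimum and 765, 923, 673 and 1499 at 20% inhibition. It fell by 1.47 ± 0.18 (adjusted p = 5.21e-05) and, in a second probe set, by 0.98 ± 0.15. DXR2, at a mean of 28089, had a change of 0.22 ± 0.16 and did not pass. HPT1, which starts tocopherol synthesis, fell by 1.57 ± 0.34 (adjusted p = 0.00462, and 0.0723 with the background covariate). GSA1, an enzyme of chlorophyll synthesis, fell by 0.59 ± 0.14 (adjusted p = 0.00781, and 0.0761 with the background covariate).

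**Figure D4:**
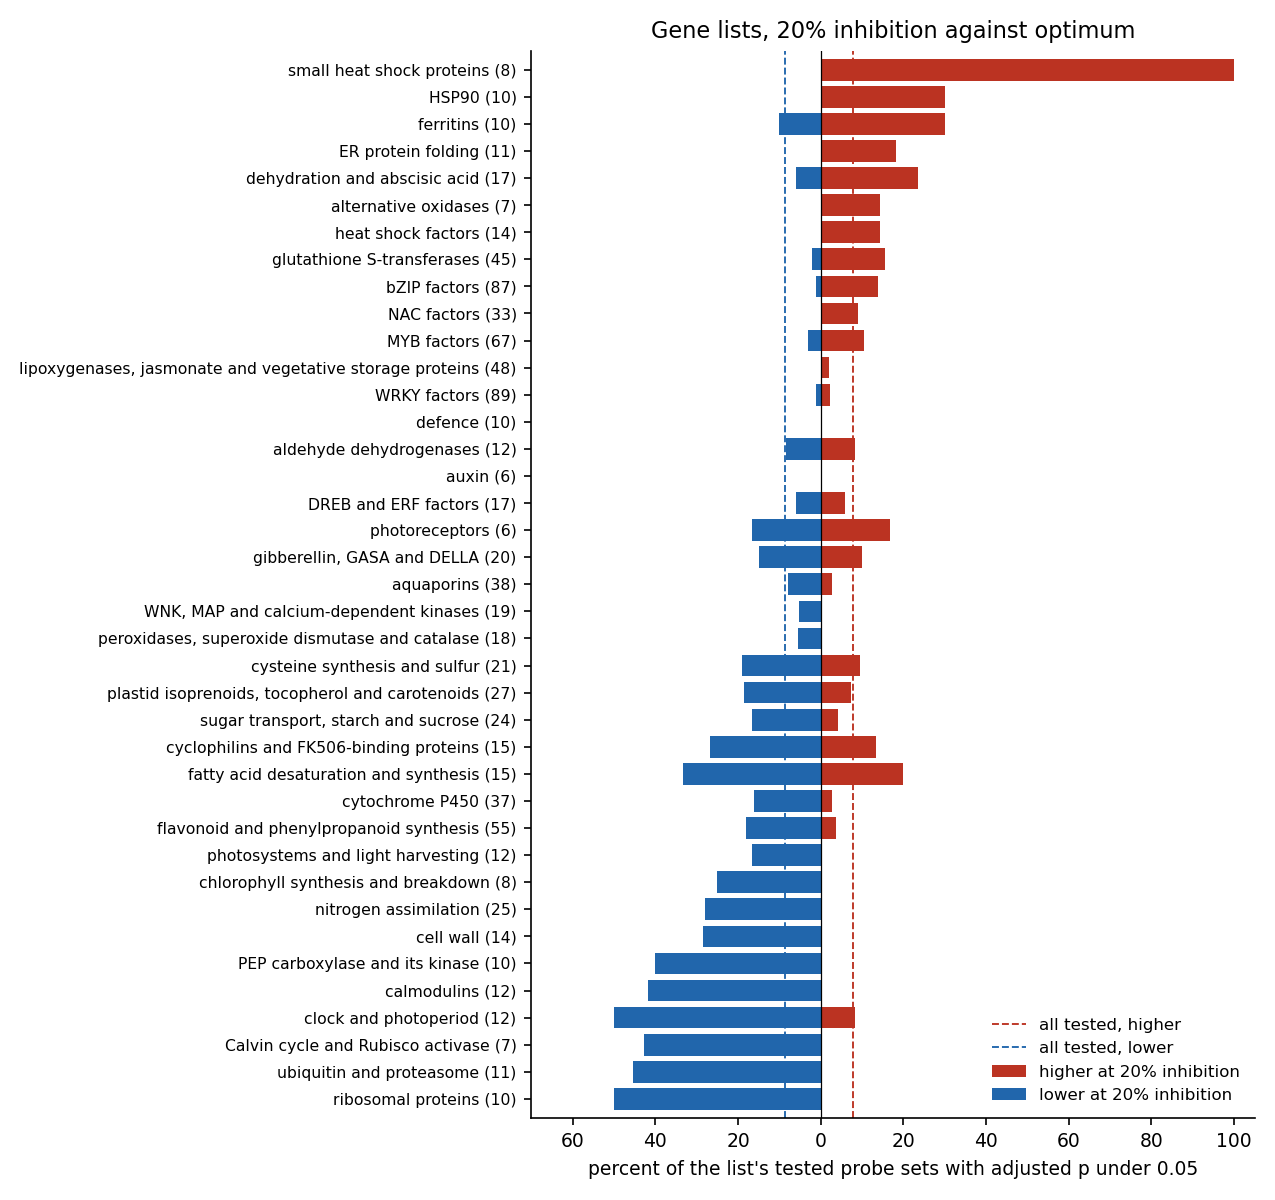
Bars show, for each gene list with at least 6 tested probe sets (their number in brackets), the percent called higher to the right and lower to the left at 20% inhibition. Dashed lines are the shares over all tested probe sets, 7.87% higher and 8.7% lower, and among these lists only that of small heat shock proteins reaches 100%.

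Membrane lipid genes passed in both directions. SACPD-C, a stearoyl-ACP desaturase, rose by 4.91 ± 1.04 (adjusted p = 0.00419) from 368, 66.8, 12.2 and 38.5 to 4273, 2552, 1098 and 793. Of its optimum signals 3 were below background, and both groups spread widely. The omega-3 desaturases FAD8.2, FAD3C and FAD3B fell by 1.17 ± 0.29, 1.60 ± 0.49 and 0.99 ± 0.33. The FAD8.2 and FAD3C calls ended with the background covariate (adjusted p = 0.175 and 0.288) and without 20% inhibition replicates 2 and 3. Without both replicates the FAD8.2 change was -0.64. FAD6.1 fell by 1.06 ± 0.23. FAD2-3, an omega-6 desaturase, rose by 0.48 ± 0.13 (adjusted p = 0.0207), with overlap, and lost its call without each of 3 arrays in turn. Of the list's 15 tested probe sets 5 fell and 3 rose, 53.3% called beside 16.6% of all tested probe sets. The 5 were 1 with the background covariate and 0 without 20% inhibition replicates 2 and 3. They were 2 or 3 without any 1 of optimum replicates 2 to 4 or of 20% inhibition replicates 1 to 3.

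Of 55 tested phenylpropanoid and flavonoid probe sets, for 27 genes, 10 fell, 2 rose and 43 did not pass. That is 21.8% called, beside 16.6% of all probe sets, and the list's median was -0.39. FLS1, flavonol synthase, had signals of 762, 837, 954 and 1017 at the optimum and 319, 334, 302 and 389 at 20% inhibition. It fell by 1.41 ± 0.22 (adjusted p = 0.000351), and both of its probe sets passed. FLS1 had already fallen by 1.04 ± 0.22 from baseline to the optimum. F3H, flavanone 3-hydroxylase, fell by 2.23 ± 0.67 (adjusted p = 0.0319), from a wide range of 1167 to 3140.3 to one of 164 to 1380.2. The states overlapped, and the call ended under 7 of 20 alternatives. CHR4, a chalcone reductase of the isoflavonoid branch, rose by 1.22 ± 0.19 (adjusted p = 0.000316), from 634, 905, 554 and 841 to 1586, 1856, 2048 and 1307. The 10 falls were 4 with the background covariate and 13 without 20% inhibition replicates 2 and 3.

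Of 38 aquaporin probe sets 1 rose and 3 fell, 10.5% in all, below the 16.6% of all probe sets, and without 20% inhibition replicate 4 there were 5 falls. PIP1-4, a plasma membrane aquaporin, had signals of 571, 572, 823 and 668 at the optimum and 2126, 1459.9, 2125 and 2568 at 20% inhibition, and rose by 1.64 ± 0.22 (adjusted p = 0.000114). PIP2-1, of the same family, fell by 3.01 ± 0.89 (adjusted p = 0.0284), from 176, 168, 188 and 409 to 45.7, 2.4, 44.9 and 109. On 3 heated arrays it was below background, and setting such signals at background left a change of -0.80 that did not pass. Its change was also -1.85 without 20% inhibition replicate 2. GOLS, galactinol synthase, rose by 1.23 ± 0.37 (adjusted p = 0.0318), a call that ended under 8 of 20 alternatives. Among dehydration and seed maturation genes, PM37 rose by 0.71 ± 0.11 from a mean of 24924 to 40603. PM12 rose by 1.59 ± 0.42 (adjusted p = 0.016), from 69.3 to 88.5, near the background level, up to 169.6 to 325, and its call ended without 20% inhibition replicate 1.

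Of the remaining large falls, GRP, on the cell wall list, had signals of 15081, 13426, 12615 and 11650.1 at the optimum and 4061, 3604, 3244 and 6523 at 20% inhibition. All 3 of its probe sets fell, with changes of -2.30 to -1.65. The brightest of them had already fallen by 0.71 ± 0.18 from baseline to the optimum. GmCUPIN16.1, a gene of the cupin family, fell by 2.43 ± 0.51 (adjusted p = 0.00382), from 10392 to 14475 down to 1164 to 4339. Its heated arrays fell into a lower pair, replicates 2 and 3, and a higher pair, and without the lower pair its change was -1.58 and did not pass. USP1 fell by 2.92 ± 0.59 (adjusted p = 0.00294), from 337 to 433 down to 9.86 to 141. With the background covariate its adjusted p was 0.0628, and its change was -1.46 where a floor was set at the background.

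Among the large transcription factor families, the shares called in both directions together were below the 16.6% of all probe sets. For rises alone, bZIP factors lay above the 7.87% of all probe sets. MYB and NAC factors lay only slightly above that share and WRKY factors below it. The 87 bZIP probe sets report 58 genes, and 12 of them rose while 1 fell (14.9%), and BZIP124 was the brightest named member. It had 5323, 4877, 2572 and 3387 at the optimum and 9393, 9104, 9061 and 5946 at 20% inhibition, and rose by 1.09 ± 0.21 (adjusted p = 0.00241). The 12 bZIP rises were 6 with the background covariate and 5 without 20% inhibition replicates 2 and 3. Of 33 NAC probe sets 3 rose, with NAC2 at 1.10 ± 0.22, from 1654 to 2729.8 up to 3581 to 6377. The 3 NAC rises were 1 with the background covariate and 1 without 20% inhibition replicates 2 and 3. Of 67 MYB probe sets outside the clock list 7 rose and 2 fell, and the 7 were 0 with the background covariate, 2 without optimum replicate 1 and 3 without 20% inhibition replicate 1. Of 89 WRKY probe sets 2, both of WRKY24, rose and 1 fell. Without 20% inhibition replicate 4 there were 5 WRKY and 6 NAC rises, and without 20% inhibition replicate 3, optimum replicate 1 or optimum replicate 3 there was 1 NAC rise.

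**Figure D5:**
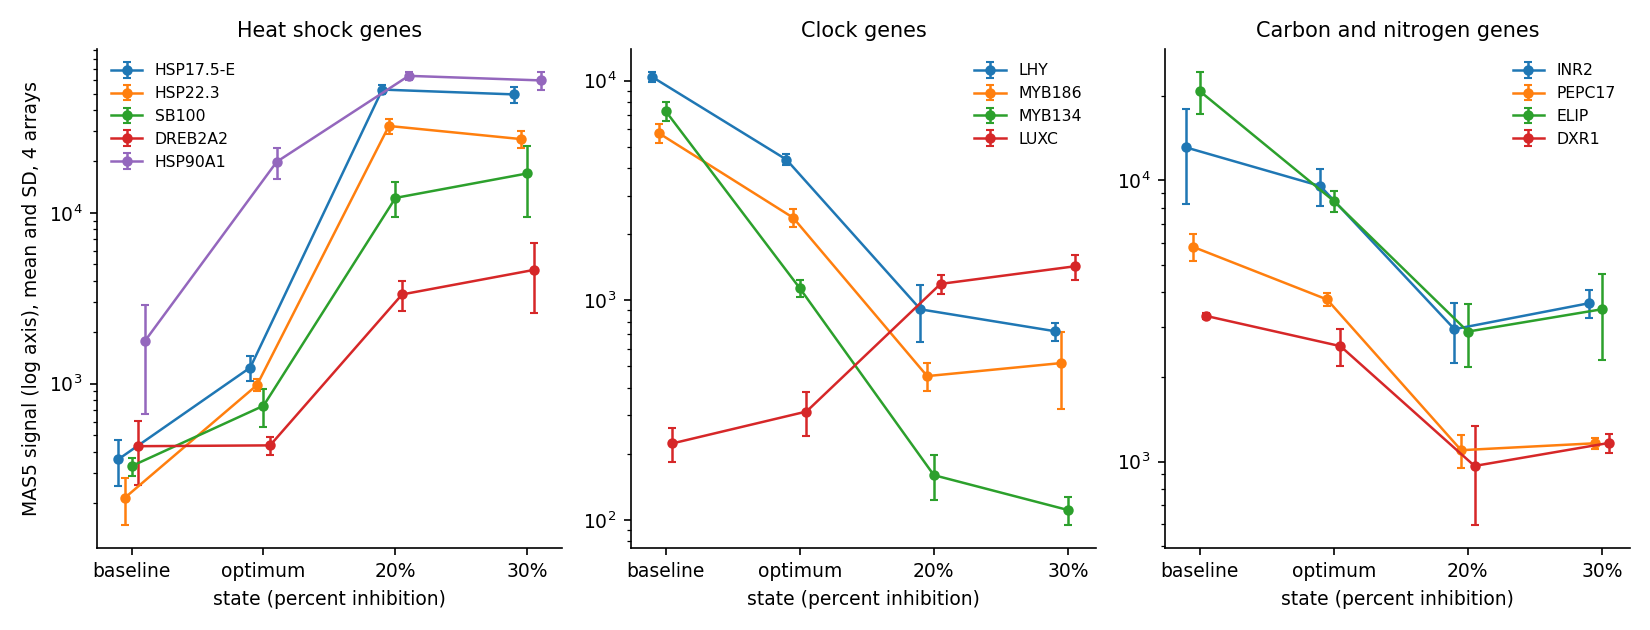
Points are mean MAS5 signals on a log axis with SD over 4 arrays at baseline, the optimum, 20% and 30% inhibition, for named heat shock, clock, and carbon and nitrogen genes. DREB2A2 was level from baseline (430.4) to the optimum (435) and at 3330.3 at 20% inhibition, while LHY and MYB134 already differed between baseline and the optimum.

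From 20% to 30% inhibition, a comparison that shares the 20% inhibition arrays, limma called 0 of 30517 probe sets, and 1193 had an unadjusted p under 0.05. The log2 difference there was -0.10 ± 0.18 for HSP17.5-E and 0.38 ± 0.29 for SB100. It was -0.28 ± 0.16 for LHY, 0.33 ± 0.22 for INR2 and 0.09 ± 0.11 for PEPC17. For MYB114 it was -1.39 ± 0.43, between signals that were below background at 20% inhibition.

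Large changes were also measured by probe sets for which the annotation used here lists no gene. The brighter of the 2 largest rises among them had signals of 227, 364, 238 and 190.1 at the optimum and 37758, 36574, 40645 and 29418 at 20% inhibition, and rose by 7.18 ± 0.23 (adjusted p = 6.82e-12). The largest fall among them was a log2 change of -4.88 ± 0.37, from 7934, 7444, 5993 and 7762 to 99.2, 248, 229 and 655. Neither probe set overlapped between the states, which the choice of these probe sets required. Of the 1223 probe sets called with a change of at least 2-fold, 855 had no gene in the annotation and 90 had a gene with a product name. The gene groups above therefore cover a small share of the step.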

How the data were processed

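The deposited values are linear signal intensities that the authors made with MAS5, per the submitters' processing notes. No source used here gives its version, settings or detection calls. Leaving out 2% of the values at each end, the mean was 500.0 on each of the 16 arrays; this common scale hides any change of total messenger RNA. The log2 of the signals was used without a pseudocount. After 135 control probe sets were left out, the 30517 of 61035 with a mean log2 signal above the median of 6.08 were tested in limma 3.58.1 (R 4.3.3), with a mean per state over all 16 arrays, a trended prior and Benjamini-Hochberg adjustment over all 30517. A signal below the array's background level gives only a bound. With 4 arrays per state, their number limits the precision, and p-values measure the spread between these arrays.

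The platform annotation pairs 8677 probe sets with 1 gene and lists none for 52123, and 936 genes with a product name were tested; 8652 of the 8677 were found in RefSeq (Glycine_max_v4.0). Probe sets ending in _s_at or _x_at can bind related transcripts. A gene was represented by its brightest tested probe set. Named genes are the 12 largest rises and 12 largest falls among called genes without overlap that were above background on all arrays of the higher state, the 2 largest rises and falls of each list (or the 2 brightest members where none passed), and the largest changes without a gene. Probe sets without a gene also had to be called, without overlap and above background on all arrays of the higher state. The genes, lists and rules were chosen with earlier results of these data known. Promoter sequences were not analysed here. Other fits tried were the 8 arrays alone, quantile normalization, centring, an added 50, a floor at background, other filters, array weights, a background covariate, a replicate block and leaving out arrays. Leaving out 20% inhibition replicates 2 and 3 together was chosen after seeing the data.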

Additional observations from a re-analysis of the deposited data

Results flagged for a closer look

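Among 202 groups of 4 arrays, for 100 named genes and probe sets and the array background level, 11 had 1 array further from the rest than Dixon's critical ratio at 95% allows; chance flags about 1 in 20 groups. At the optimum, HSP22.3 was high in replicate 1 (signal 1099.5), CCT-D was high in replicate 1 (1947) and ETR2, an ethylene receptor gene, was high in replicate 1 (341). SB100 was low in optimum replicate 3 (468), and PIP2-1 was high in optimum replicate 4 (409). At 20% inhibition, EIN4, an ethylene receptor gene, was low in replicate 3 (427), as were TIR1C, an auxin receptor gene (1444), and GSTU3, a glutathione S-transferase gene (3518). CYP17 and BZIP124 were low in 20% inhibition replicate 4 (2148 and 5946), and ALDH10A2, an aldehyde dehydrogenase gene, was high in replicate 1 (10090.2). EIN4, ETR2 and TIR1C did not pass between the states, with adjusted p of 0.532, 0.425 and 0.124. The calls of HSP22.3, SB100, CCT-D, CYP17, BZIP124 and ALDH10A2 held without each array in turn. That of GSTU3 ended without its low array, and that of PIP2-1 without its high one.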

How the results depend on the processing

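Of 20 alternative fits, none reversed a named gene, and 49 of 90 calls on named genes and probe sets held wherever they were tested. The 5059 calls became 2223 with the array background level as a covariate and 2925 without 20% inhibition replicates 2 and 3, a choice made after seeing the data. Leaving out 1 array gave 3731 to 5494 calls, and the other fits 3807 to 5702. With the covariate 33 of the 90 named calls were lost, and without both replicates 31; the cause was not tested. The calls of HSP17.5-E, HSP22.3, HSP22.5, HSP90A1, SB100, DREB2A2, LHY and LUXC held wherever tested. The log2 difference in array background was 0.38 to 0.62 when 1 array was left out, and without 20% inhibition replicate 4 it was 0.62, with an exact permutation p of 0.0286. Replicate numbers are shared by the states, but the deviations of same-numbered arrays correlated at -0.003, 0.03, -0.27 and 0.16, so the numbers were not taken as pairs; a replicate block gave 4578 calls. Dim probe sets limit the depth of the comparison: 4.67% were called in the dimmest of 4 equal classes.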

Other observations

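Of 10 tested ribosomal protein probe sets 5 fell and 0 rose, with RPL2 at -0.54 ± 0.10 from a mean of 10197 to 7037. Of 11 ubiquitin probe sets 5 fell, among them 2 bright probe sets listed as SUBI-1, a polyubiquitin gene. The brighter fell by 0.35 ± 0.09 from a mean of 40559 to 31721, a call that ended under 3 of 20 alternatives, and the other by 0.57 ± 0.08 from 37037 to 24914. Of 12 calmodulin probe sets, of the calcium sensors SCAM-1 to SCAM-4, 5 fell. The shares called in these lists were 50%, 45.5% and 41.7%, beside 16.6% of all tested probe sets. The counts of 5 became 2, 2 and 1 with the background covariate. Those of ribosomal proteins and ubiquitin were 3 without optimum replicate 2 or 4. The first was also 3 without 20% inhibition replicate 4, and the second without optimum replicate 1 or 20% inhibition replicate 1 or 2. In the brightest of 4 equal classes of tested probe sets 29.1% were called.

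CYP93E1, a P450 of soyasaponin synthesis, fell in all 3 probe sets, by 0.85 to 1.13. SFERH-3, a ferritin that stores iron in plastids, rose in all 3, by 0.44 to 1.69, while 1 of 4 SFERH-2 probe sets fell by 1.15 ± 0.27. The rise of 1.69 was that of the dimmest of the 3, at a mean of 285 at the optimum. The 3 ferritin rises were 1 with the background covariate and 1 without 20% inhibition replicates 2 and 3. GSTa, a glutathione S-transferase, rose by 0.91 ± 0.14 from 13120.1 to 24588. AOX1, the alternative oxidase, rose by 1.05 ± 0.33 (adjusted p = 0.0409), a call that ended under 10 of 20 alternatives. Of 48 tested probe sets for lipoxygenases, jasmonate and storage proteins 1 rose, 2.08% called beside 16.6% of all tested probe sets. In this list 0 rose without optimum replicate 1 or 3, or without 20% inhibition replicate 1, 2 or 4. Of 4 ethylene, 6 auxin, 10 defence and 4 histone and cell cycle probe sets limma called 0, and the histone gene H4 ranged from 1757 to 12849 at the optimum and from 2343 to 21848 at 20% inhibition.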
